A study of Mus musculus with 8 samples.

Results

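The conjugation, or phase II, enzymes of 3 families were followed in livers with and without *Agpat3*, the gene of the acyltransferase AGPAT3. The families are the glutathione S-transferases (cytosolic GST and microsomal MGST), the UDP-glucuronosyltransferases (UGT) and the sulfotransferases (SULT). A gene was taken as a member when an array probe carried a transcript accession that a RefSeq gene table assigns to a protein-coding gene with a symbol of these families, and each gene was read from its brightest probe. Of 67 such genes in the table, 59 had a probe, out of 22911 genes named on the array. The members were 24 GST and MGST genes, 14 UGT genes and 21 SULT genes. No probe carried an accession of *Gsta1*, *Ugt1a1*, *Ugt1a2*, *Ugt1a5*, *Ugt1a7c*, *Ugt1a8*, *Ugt1a9* or *Ugt2a2*, so these genes were not analysed here.

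Conjugation makes reactive or poorly soluble molecules easier to excrete. GST enzymes join glutathione to electrophiles, UGT enzymes sit in the endoplasmic reticulum and transfer glucuronic acid from UDP-glucuronate, and SULT enzymes transfer a sulfonate group from 3'-phosphoadenosine-5'-phosphosulfate (PAPS). The liver is the main organ of all these reactions, and in mouse liver several members are known to differ between males and females and to respond to the receptors NRF2, AHR, CAR and PXR. The products leave hepatocytes through transporters of the ABC family.

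Total RNA came from frozen livers of male C57BL/6 mice, 10 weeks old, 4 labelled *Agpat3* WT and 4 labelled *Agpat3* KO. The KO mice lack *Agpat3* in the whole body and not only in the liver, no other allele or agent is named for either group, and the livers are numbered 1 to 4 in each group. Each liver was hybridized to a one-colour array. The 8 arrays shared 1 slide and 1 scan, but WT arrays filled its row 1 and KO arrays its row 2, and slide row cannot be told apart from genotype. WT and KO arrays of the same number lay in the same slide column, and the median local background was 32 and 31 units in column 1 and 27 in both arrays of column 4. The targeted gene had log2 signals of 5.65, 5.66, 5.80 and 5.88 in the WT livers and -0.48, 0.02, -0.58 and -0.47 in the KO livers with its brighter probe, low in the 4 livers labelled KO. Hepatocyte markers such as *Alb*, serum albumin, were high on all arrays, and the summed linear signal of 8 hepatocyte markers ranged from 4343 to 4764 times the level of the 75th percentile of the array in WT and from 4400 to 4658 in KO. In a whole liver, fewer cells of a type and less RNA per cell cannot be told apart. Because only the labels number the livers, the p-values below measure the spread between these 8 samples, and the precision is limited by their number.

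All signals below are log2 intensities minus that array's 75th percentile, so that 0 is the level of the percentile and 1 unit is a factor of 2. A difference is the KO mean minus the WT mean of these log2 signals. A probe was tested when all 4 arrays of WT, of KO or of both measured it well above background, which held for 29069 of 56605 probes. It was called when it changed over 1.5-fold with an adjusted p under 0.2 in the fit of limma across all tested probes.

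Detection differed between the families. All 14 UGT genes were tested, with 21 of the 24 GST and MGST genes and 9 of the 21 SULT genes, 44 members in all. Of these, 43 lay well above background on all 8 arrays, and the other, *Sult4a1*, on 3 WT arrays and all 4 KO arrays. Among the 15 members not tested, 10 were not well above background on any array, namely *Gstt4*, *Sult2a1*, *Sult2a2*, *Sult2a4*, *Sult2a5*, *Sult2a6*, *Sult2b1*, *Sult3a1*, *Sult6b1* and *Sult6b2*. The remaining 5 were above background on some arrays. *Gsto2* was above background on 1 WT and 2 KO arrays, *Mgst2* on 2 and 2, and *Sult1e1*, the estrogen sulfotransferase, on 3 and 1. *Sult2a3* and *Sult3a2* were above background on a single KO array. The sulfotransferases near the background thus included 7 of the 9 *Sult2* members, the hydroxysteroid and cholesterol sulfotransferases, and both *Sult3a* members.

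A single conjugation gene was called between the genotypes. *Sult5a1* was lower in KO, which is 2.27% of the 44 tested members against 0.726% of all probes tested. No member was called higher in KO by limma, against 0.939% of all probes, and the unpaired t test at the same thresholds called none either. At an unadjusted p under 0.05, 10 members (22.7%) passed, 5 higher and 5 lower in KO, against 13.3% of all probes. The difference was over 1.5-fold, whatever its p, in 4 members (9.09%), *Sult5a1* lower and *Gstt3*, *Sult2a7* and *Sult1c2* higher, against 3.66% of all probes. The groups did not overlap for 2 members higher in KO, *Gstm5* and *Sult1c1*, and for 4 members lower in KO, *Gstp1*, *Ugt2b38*, *Ugt2b37* and *Ugt2b5*. These 6 are 13.6% of the tested members, beside 8.79% of all probes in either direction, 3.69% higher and 5.10% lower. The median log2 difference of the 44 members was 0.10, and that of all probes tested was -0.02. The median of the members was 0.04 without WT liver 1, 0.07 without KO liver 3 and 0.06 with median normalization. With all livers it was 0.12 for GST and MGST with 16 of 21 above 0, -0.11 for UGT with 11 of 14 below 0, and 0.25 for SULT with 6 of 9 above 0, while 43.8% of all probes lay above 0. Without WT liver 1 the GST and MGST median was 0.06, with 14 of 21 above 0, and with normexp background correction the SULT median was 0.15. *Sult4a1* was tested only through its KO arrays. With only probes above background on all arrays, which leaves it out, the SULT median was 0.18, with 5 of 8 above 0. Many genes of a family lie on the same chromosome and are similar in sequence, so a probe may also read RNA of a related gene, and they are not replicates of each other. Of 14 further tested probes of 13 members, 12 had the sign of the brightest probe, with a median gap of 0.05, and the 2 exceptions belonged to *Ugt1a6b*.

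**Figure D1:**
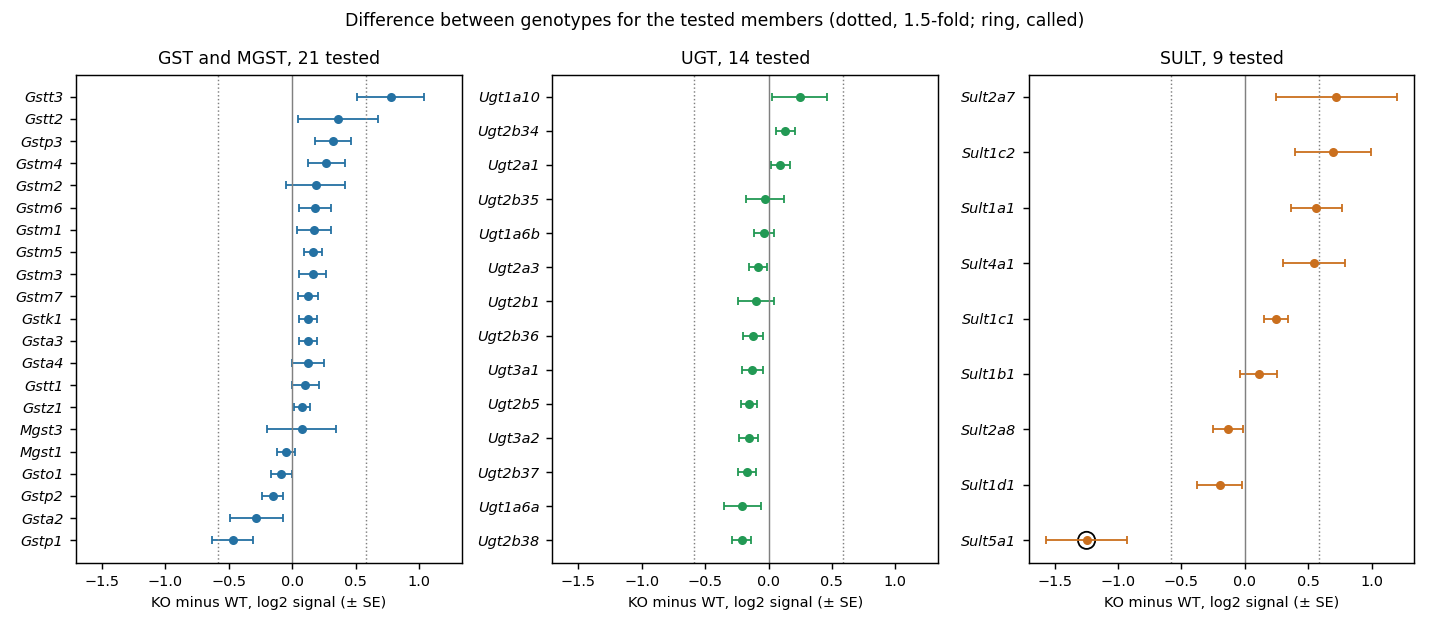
Difference in log2 signal between *Agpat3* KO and WT liver (horizontal axis, KO mean minus WT mean, n = 4 each, bars are ± 1 SE from limma) for the 44 tested members, by family. Dotted lines mark a 1.5-fold change and the ring marks *Sult5a1*, the only called member, at -1.25, while *Gstt3*, *Sult2a7* and *Sult1c2* also lay beyond the 1.5-fold line.

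*Sult5a1* belongs to a sulfotransferase family whose substrates are little known. Its log2 signals were 2.19, 1.49, 1.78 and 2.50 in the WT livers and 0.08, 0.80, 0.58 and 1.5 in the KO livers. The highest KO liver, number 4, lay just above the lowest WT liver, number 2, so that the groups overlapped by 1 liver. The mean was 1.99 ± 0.45 in WT and 0.74 ± 0.59 in KO (mean ± SD, n = 4 each), a difference of -1.25 (SE 0.32, adjusted p = 0.156, limma), or 2.38-fold lower in KO. An exact permutation test over the 70 ways to divide the 8 livers gave a two-sided p = 0.0571, and the smallest p this design allows is 0.0286. A second, dimmer probe of *Sult5a1* showed a difference of -0.90 (adjusted p = 0.312, limma) and was not called. The call was lost when any 1 of 6 livers was left out, namely WT 1, 3 or 4 or KO 1, 2 or 3, with differences between -1.32 and -1.03 and adjusted p-values from limma between 0.212 and 0.287. It was also lost without the filter on dim probes (adjusted p = 0.351, limma), with the unpaired t test and with the mean of its 2 probes, -1.08.

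The promoter of *Sult5a1* is shown because it is the called member. RefSeq places these 250 bases before its start in GRCm38.p6, and all letters are in lower case because none of 3 searched motifs was found.
Sult5a1, chr8:123158281-123158530, minus strand: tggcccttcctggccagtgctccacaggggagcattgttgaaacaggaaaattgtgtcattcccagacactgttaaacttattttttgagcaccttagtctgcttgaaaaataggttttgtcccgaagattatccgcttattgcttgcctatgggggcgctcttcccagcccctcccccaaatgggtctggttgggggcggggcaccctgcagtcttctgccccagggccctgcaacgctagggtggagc

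The 3 motifs were TGACNNNGC (the core of the antioxidant response element that NRF2 binds), GCGTG (the core of the xenobiotic response element that AHR binds) and TGACCT (a nuclear receptor core site). They were searched on both strands in 300 bases, 250 before and 50 after each start, in 63 promoters of 51 members. TGACNNNGC was present in 4 members, *Gsta3*, *Gstm5*, *Gstm7* and *Mgst1*, or 7.84% of 51, beside 12.4% of 32851 promoters. GCGTG was present in 9 members (17.6%, beside 32.4%) and TGACCT in 10 (19.6%, beside 16.3%). A member counted when any of its promoters matched, whereas the 32851 promoters were counted singly, so the 2 shares are not alike in unit. A match describes letters only, and these motifs are short.

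The other tested sulfotransferases were not called. *Sult1a1*, the main phenol sulfotransferase of the liver, is given here although it was chosen after its values were seen. Its log2 signals were 5.97, 6.60, 6.85 and 6.53 in the WT livers and 6.71, 7.19, 7.31 and 6.98 in the KO livers. WT liver 1 was the lowest of all, and only KO liver 1 lay within the WT range. The difference was 0.56 (SE 0.20, adjusted p = 0.281, limma), the exact permutation p was 0.0571, and a second probe gave 0.54.

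*Sult1c1* and *Sult1c2*, of the phenol sulfotransferase family, both lie on chromosome 17. *Sult1c1* had signals of -0.60, -0.62, -0.60 and -0.78 in the WT livers and -0.43, -0.56, -0.20 and -0.42 in the KO livers. All KO livers lay above all WT livers, by a small margin, with a difference of 0.25 (SE 0.09, adjusted p = 0.304, limma) and an exact permutation p of 0.0286, the smallest possible. The separation depends on the scaling, as KO liver 2 lay below WT livers 2 and 3 before it. *Sult1c2* had signals of -0.03, 0.44, 0.39 and 0.93 in the WT livers and 0.62, 1.91, 0.79 and 1.18 in the KO livers, with KO liver 2 far above the rest and WT liver 4 above 2 of the KO livers. Its difference was 0.70 (SE 0.30, adjusted p = 0.374, limma) and fell to 0.43 without KO liver 2.

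*Sult2a7* belongs to the hydroxysteroid sulfotransferases, which in mouse liver are known to be mostly female-biased. Its signals were -1.89, -1.21, -1.13 and -1.27 in the WT livers and -1.33, -1.22, 0.92 and -1.0 in the KO livers. KO liver 3 stood apart from every other liver, and the other 3 KO livers lay within the WT range or just above it. The difference was 0.72 (SE 0.48, adjusted p = 0.575, limma), and it was 0.19 without KO liver 3 (adjusted p = 0.732, limma). KO liver 3 also differed from the rest in some genes known for a sex bias. It was the lowest of the 8 livers in 9 of 12 tested male-biased genes and the highest in 4 of 9 tested female-biased genes. It was not the extreme liver for the male-biased *Cyp4a12a*, *Cyp4a12b* and *Serpina1e*, lowest in WT liver 3, nor for the female-biased *Cyp2a4*, *Cyp3a41a* and *Cyp3a16*, highest in WT liver 4, *Fmo2* or *Nipal1*. The genes given next are those in which it lay far from the others, and they were chosen after their values were seen. *Cyp2b9*, a female-biased cytochrome P450, was at 4.21 in KO liver 3 and between 0.01 and 0.81 in the other KO livers. *Cyp2b13*, another female-biased P450, was at -2.62 there and at -5.60 or lower in all others except WT liver 2, at -5.20. *Cyp7b1*, the oxysterol hydroxylase that is male-biased in mouse, was at 4.04 in KO liver 3 and between 5.82 and 6.09 in the other KO livers. *Elovl3*, a male-biased elongase, was at 3.96 there and at 5.0 or higher in the rest. Of the 12 genes of the male-biased list, all tested, 2 lay above 0 and 1, *Cyp7b1*, was called lower. Of 9 tested female-biased genes 7 lay above 0 and none was called by limma. At an unadjusted p under 0.05, 3 of the female-biased genes were higher and 0 lower, and of the male-biased genes 0 were higher and 2 lower. Of all probes, 1.67% were called, 13.3% passed that p and 43.8% lay above 0. The difference of *Cyp7b1* was -1.55 (SE 0.43, adjusted p = 0.188, limma), and its call was kept without KO liver 3, at -1.06 on the log2 scale, and lost without any 1 of the other 7 livers. Groups did not overlap for 2 male-biased genes, *Cyp7b1* and *Cyp2d9* (-0.30), and 2 female-biased genes, *Cyp2b9* (2.92) and *Acot3* (1.29), beside 8.79% of all probes. With slide column as a block *Cyp2b9*, *Acot3* and *Nipal1* were called higher and *Elovl3* lower as well. The part of these genes in the values of *Sult2a7* was not tested.

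The remaining sulfotransferases showed no call in either direction. *Sult4a1*, known as a brain form, was dim, with a difference of 0.55, and *Sult1b1* was at 0.11. *Sult2a8*, which sulfates bile acids in mouse liver, was at -0.13, and *Sult1d1*, which sulfates catecholamines, was at -0.20. Their adjusted p-values from limma lay between 0.395 and 0.805.

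**Figure D2:**
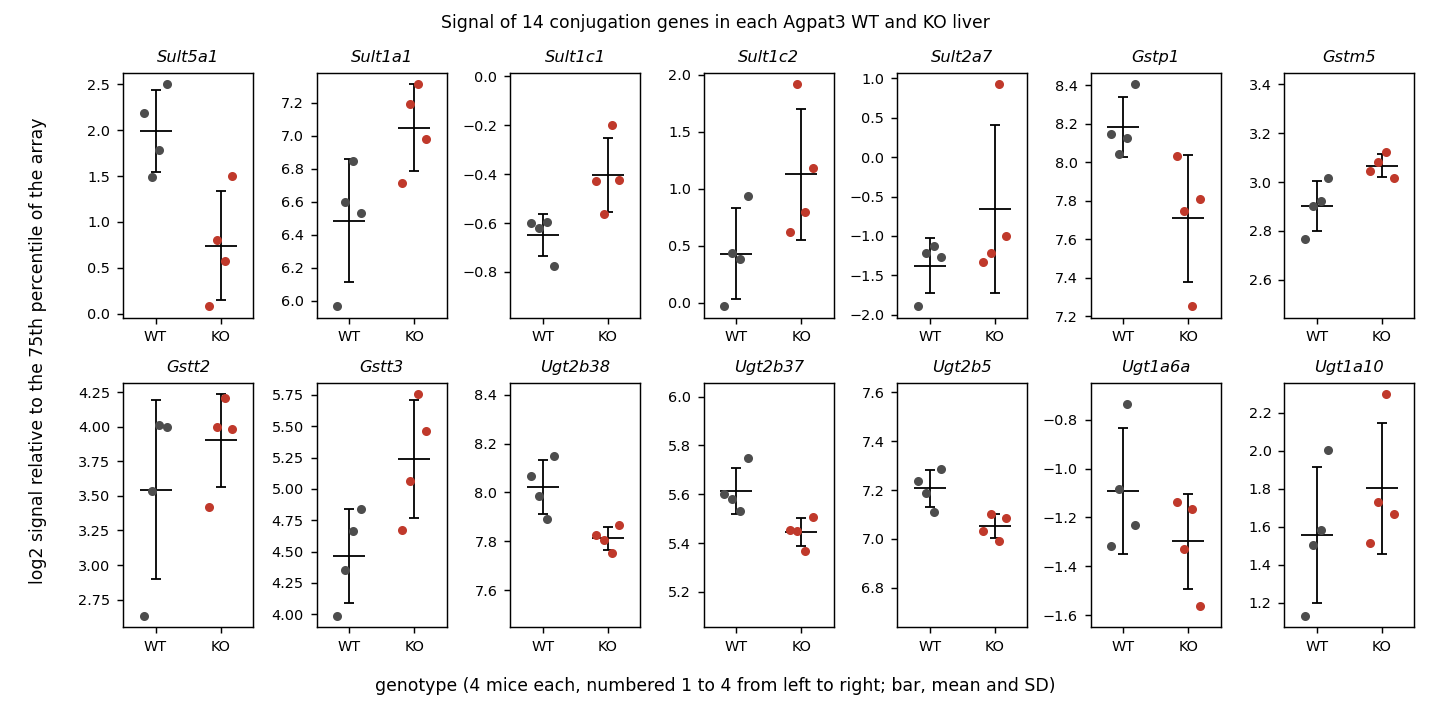
Log2 signal minus the array's 75th percentile (vertical axis, own scale per gene, at least 1 unit high) for 14 members in each liver (points, numbers 1 to 4 from left to right), with mean and SD (bars) in 4 WT and 4 KO livers. The groups do not overlap for *Sult1c1*, *Gstp1*, *Gstm5*, *Ugt2b38*, *Ugt2b37* and *Ugt2b5*, whereas 1 KO liver of *Sult5a1* reaches the lowest WT liver and *Sult2a7* rests on KO liver 3.

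Among the glutathione S-transferases, the pi genes lay on both sides of 0 and none was called. *Gstp1* and *Gstp2* are near-identical enzymes that are known to be higher in male than in female mouse liver. *Gstp1* had log2 signals of 8.15, 8.04, 8.13 and 8.40 in the WT livers and 8.03, 7.75, 7.25 and 7.81 in the KO livers. All KO livers lay below all WT livers, KO liver 1 by a narrow margin, and KO liver 3 was the lowest. The separation depends on the scaling, as KO liver 1 lay above WT liver 2 before it. The mean was 8.18 ± 0.16 in WT and 7.71 ± 0.33 in KO (mean ± SD, n = 4 each). The difference was -0.47 (SE 0.16, adjusted p = 0.274, limma) with an exact permutation p of 0.0286, the smallest possible, and it was -0.32 without KO liver 3. *Gstp2* had a difference of -0.15 (adjusted p = 0.484, limma), and it too was lowest in KO liver 3, at 9.36. *Gstp3* lay above 0 at 0.32 (adjusted p = 0.374, limma), so the 3 genes did not share a direction. KO liver 3 is the liver described above for *Cyp2b9* and *Cyp7b1*, and the part of that in the *Gstp* values was not tested.

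The promoters of *Gstp1* and *Gstp2* are shown because both genes lay below 0 and were lowest in the same liver. In GRCm38.p6 of RefSeq, the 250 bases before each start are 78.1% identical, and capitals mark their longest shared stretch, 43 bases.
Gstp1, chr19:4037913-4038162, minus strand: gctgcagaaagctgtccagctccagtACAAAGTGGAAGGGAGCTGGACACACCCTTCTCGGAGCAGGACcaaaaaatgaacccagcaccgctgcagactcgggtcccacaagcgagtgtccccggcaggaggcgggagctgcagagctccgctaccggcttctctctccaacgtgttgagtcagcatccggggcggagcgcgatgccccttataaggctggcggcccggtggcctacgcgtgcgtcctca
Gstp2, chr19:4042222-4042471, minus strand: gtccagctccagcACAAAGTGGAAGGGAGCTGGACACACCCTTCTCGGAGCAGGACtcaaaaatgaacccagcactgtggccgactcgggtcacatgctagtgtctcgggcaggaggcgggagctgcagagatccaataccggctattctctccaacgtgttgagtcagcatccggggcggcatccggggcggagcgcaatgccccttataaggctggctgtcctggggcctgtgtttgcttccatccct

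The mu class lay above 0 in all 7 genes. Mu enzymes are major hepatic GST forms, and all 7 genes lie on chromosome 3. The 7 differences, *Gstm1* to *Gstm7*, ranged from 0.13 for *Gstm7* to 0.27 for *Gstm4*, and none had an adjusted p under 0.381 (limma). All 7 stayed above 0 under the other scalings, and without WT liver 1 *Gstm2* was just below it, at -0.0029, and the other 6 between 0.09 and 0.21. Within slide column 2, the KO liver lay below the WT liver in every mu gene except *Gstm5*. These differences ran from -0.10 for *Gstm6* to -0.02 for *Gstm2*. In columns 1, 3 and 4 the KO liver was the higher in all 7. *Gstm5* had signals of 2.77, 2.90, 2.92 and 3.02 in the WT livers and 3.05, 3.08, 3.12 and 3.02 in the KO livers. Its groups only just did not overlap, as WT liver 4 and KO liver 4 were both at 3.02 after rounding. Before scaling they overlapped, with KO livers 2 and 4 below WT liver 3. The difference was 0.17 (SE 0.07, adjusted p = 0.381, limma), about a 1.12-fold change, with an exact permutation p of 0.0286. *Gstm1*, *Gstm5* and *Gstm6* had a second tested probe, and these lay at 0.22, 0.28 and 0.30.

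The theta class held the GST with the highest difference. Theta enzymes act on halogenated and small electrophiles. *Gstt3* had signals of 3.99, 4.36, 4.66 and 4.84 in the WT livers and 4.67, 5.06, 5.76 and 5.46 in the KO livers. Only KO liver 1 lay within the WT range, and KO livers 3 and 4 were far above it. The mean was 4.46 ± 0.38 in WT and 5.24 ± 0.47 in KO (mean ± SD, n = 4 each), and the difference was 0.78 (SE 0.26, adjusted p = 0.263, limma), or 1.71-fold higher in KO, with an exact permutation p of 0.0571. It did not pass the threshold. It was called with normexp background correction (adjusted p = 0.198, limma), and its difference was 0.60 without KO liver 3. Within slide columns 1 to 4 the KO liver was higher by 0.68, 0.71, 1.1 and 0.62, and with the column, which is also the liver number, as a block it was called (adjusted p = 0.0810, limma). *Gstt2* had signals of 2.63, 3.53, 4.01 and 4.00 in the WT livers and 3.42, 4.00, 4.21 and 3.98 in the KO livers, with WT liver 1 the lowest. *Ahr*, the receptor gene, was lowest in the same liver, at 1.93 against 2.98 to 3.29 in the other WT livers. It was named after its values were seen. Other regulators were also lowest there, among them *Mafg* at 4.68 and *Rora* at 4.59, whereas *Arnt* was highest there, at 2.12. The part of these regulators was not tested. The groups of *Gstt2* overlapped, the difference was 0.36 (SE 0.31, adjusted p = 0.682, limma), and it fell to 0.05 without WT liver 1. *Gstt1* was at 0.10 and *Gstt4* was not above background. The 4 theta genes adjoin one another on chromosome 10, which also carries *Agpat3*, with 68 to 71 protein-coding genes between them. Whether this position bears on the values was not tested.

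The alpha class and the other GST genes had no call. *Gsta3* and *Gsta4* were both at 0.12, and *Gsta2*, a known NRF2 target, was at -0.28 with 4.34 in KO liver 2 and 5.34 in KO liver 3. *Gstk1*, the mitochondrial and peroxisomal kappa form, was at 0.12. *Gstz1*, which acts in tyrosine breakdown as maleylacetoacetate isomerase, was at 0.08, and *Gsto1*, an omega form with reductase activity, was at -0.08. *Mgst1* and *Mgst3*, the membrane-bound forms tested, were at -0.05 and 0.07. None of these 8 genes had an adjusted p under 0.505 (limma).

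The glucuronosyltransferases showed the smallest spread between livers, with a median SE of 0.08 against 0.13 for GST and MGST and 0.20 for SULT. *Ugt2b* enzymes glucuronidate steroids, bile acids and drugs, and 6 of their 7 members lay below 0, also under the other scalings, and 5 of 7 without WT liver 4, KO liver 3 or KO liver 4. *Ugt2b38* had signals of 8.07, 7.98, 7.89 and 8.15 in the WT livers and 7.82, 7.81, 7.75 and 7.87 in the KO livers. *Ugt2b37* had signals of 5.60, 5.58, 5.53 and 5.75 in the WT livers and 5.45, 5.45, 5.37 and 5.51 in the KO livers. *Ugt2b5* had signals of 7.24, 7.19, 7.11 and 7.29 in the WT livers and 7.03, 7.10, 6.99 and 7.09 in the KO livers. In all 3 genes every KO liver lay below every WT liver, and on this scale WT liver 4 was the highest and KO liver 3 the lowest. That order depends on the scaling, as WT array 4 had the lowest 75th percentile, 261 units. Before scaling, WT liver 4 was not the highest in any of them, and KO liver 2 was the lowest for *Ugt2b38* and *Ugt2b37*. Every KO liver still lay below every WT liver before scaling in all 3 genes. Their differences were -0.21 (SE 0.07, adjusted p = 0.276, limma), -0.17 (adjusted p = 0.362) and -0.15 (adjusted p = 0.374), each with the smallest possible exact permutation p of 0.0286. These are changes of 1.11- to 1.16-fold, and none reached the 1.5-fold line. *Ugt2b36* was at -0.12, *Ugt2b1* at -0.10, *Ugt2b35* at -0.03 and *Ugt2b34*, the member above 0, at 0.13.

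The promoters of the 3 non-overlapping *Ugt2b* genes are shown because each gene was lower in every KO liver than in any WT liver. RefSeq places them on chromosome 5 in GRCm38.p6, and capitals mark TGACCT read on the other strand, which was found in all 3.
Ugt2b38, chr5:87424204-87424453, minus strand: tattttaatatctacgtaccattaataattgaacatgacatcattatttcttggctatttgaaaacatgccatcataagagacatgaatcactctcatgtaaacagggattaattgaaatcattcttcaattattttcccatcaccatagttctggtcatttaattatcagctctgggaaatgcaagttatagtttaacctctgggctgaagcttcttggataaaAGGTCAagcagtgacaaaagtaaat
Ugt2b37, chr5:87254789-87255038, minus strand: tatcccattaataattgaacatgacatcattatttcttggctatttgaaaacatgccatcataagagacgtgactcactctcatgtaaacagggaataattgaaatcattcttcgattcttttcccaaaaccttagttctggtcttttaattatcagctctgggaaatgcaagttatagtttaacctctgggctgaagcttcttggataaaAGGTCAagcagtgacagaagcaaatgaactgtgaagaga
Ugt2b5, chr5:87140341-87140590, minus strand: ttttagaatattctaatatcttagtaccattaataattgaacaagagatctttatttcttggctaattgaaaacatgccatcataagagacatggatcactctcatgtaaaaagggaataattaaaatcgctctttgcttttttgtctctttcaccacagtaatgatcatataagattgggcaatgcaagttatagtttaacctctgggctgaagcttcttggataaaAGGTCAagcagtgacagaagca

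The core site began 25, 39 and 22 bases before the start of *Ugt2b38*, *Ugt2b37* and *Ugt2b5*, within a stretch of 62 bases that the 3 promoters share. *Ugt2b37* and *Ugt2b38* were 84.8% identical over the 250 bases, *Ugt2b5* and *Ugt2b38* 81.5%, and *Ugt2b5* and *Ugt2b37* 72.6%. *Ugt2b36* carries it 25 bases before its start and *Ugt2b35* 215 bases before it, whereas it was not found in *Ugt2b1* or *Ugt2b34*. With such likeness among the genes, signal at 1 probe may include RNA of the others, which was not tested.

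The *Ugt1a* forms share most of their exons and differ in the first one. *Ugt1a6a*, a phenol glucuronosyltransferase, had signals of -1.32, -1.08, -0.73 and -1.23 in the WT livers and -1.14, -1.33, -1.17 and -1.56 in the KO livers, with WT liver 3 the highest and KO liver 4 the lowest. Its groups overlapped, with a difference of -0.21 (SE 0.15, adjusted p = 0.603, limma), or -0.09 without WT liver 3 and -0.12 without KO liver 4. *Ugt1a10* had signals of 1.13, 1.5, 1.58 and 2.00 in the WT livers and 1.52, 1.73, 2.30 and 1.67 in the KO livers, with KO liver 3 the highest. Its groups overlapped as well, with a difference of 0.25 (SE 0.22, adjusted p = 0.683, limma), or 0.08 without KO liver 3, 0.11 without WT liver 1 and 0.40 without WT liver 4. *Ugt1a6b* was at -0.04, and its 2 other probes at 0.04 and 0.03. *Ugt2a1*, best known from olfactory tissue, was at 0.09, *Ugt2a3* at -0.08, and *Ugt3a1* and *Ugt3a2*, which use other UDP sugars, at -0.13 and -0.16.

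**Figure D3:**
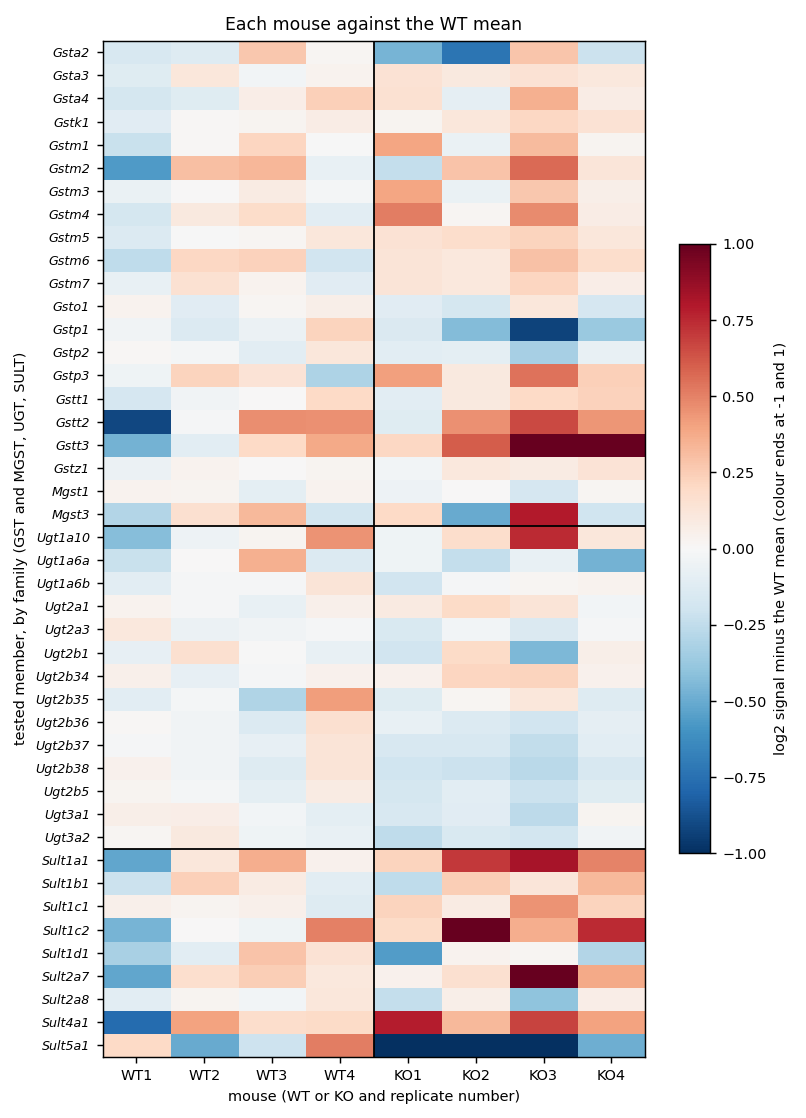
Log2 signal of each liver (columns) minus the WT mean of the gene for the 44 tested members (rows, grouped by family), with colours ending at -1 and 1. KO liver 3 differs from the WT mean by over 1.5-fold in 9 of 44 members and the other KO livers in 2 to 5. WT liver 1 is above the WT mean in 13 members, and each WT liver is part of that mean.

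Across the livers the members did not move as 1 block. In KO liver 3, 9 of the 44 members lay over 1.5-fold from the WT mean, against 2 in KO 1, 5 in KO 2 and 2 in KO 4. Among the WT livers only number 1 had such members, 2 in count. A WT liver is part of that mean and lies closer to it for that reason, so WT and KO counts cannot be compared directly. GST and MGST genes lay above the WT mean in 12, 13, 18 and 16 of 21 in KO livers 1 to 4, and in 3, 12, 17 and 13 in the WT livers. UGT genes lay above it in 2, 5, 5 and 5 of 14 in the KO livers and in 8, 4, 2 and 9 in the WT livers, so the groups overlapped. SULT genes lay above it in 5, 8, 7 and 7 of 9 in the KO livers and in 2, 7, 6 and 7 in the WT livers.

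*Sult2a3* and *Sult3a2* appeared on 1 array alone. The log2 signal of *Sult2a3* was -2.08 on KO array 1 and between -6.63 and -5.73 on the other 7, and that of *Sult3a2* was -1.52 there and between -6.61 and -6.18 elsewhere. On the linear scale the *Sult2a3* spot gave 70.5 intensity units on that array and 2.91 to 4.91 on the others. The local background around both spots was raised on the same array, 58 and 61 units against an array median of 31. No other member had a local background over 1.26 times the array median on any array. The spots with a local background over 1.5 times the array median numbered 90 on KO array 1, 12 on WT array 1, 2 on WT array 3 and 0 on the rest. On KO array 1, 280 probes lay over 8-fold above every other array, and 22 of these had such a raised background. The other KO arrays had 121 to 214 such probes and the WT arrays 8 to 27, with 0 on a raised background. The part of the background in both signals was not tested. *Sult2a3* and *Sult3a2* were named after their values were seen.

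**Figure D4:**
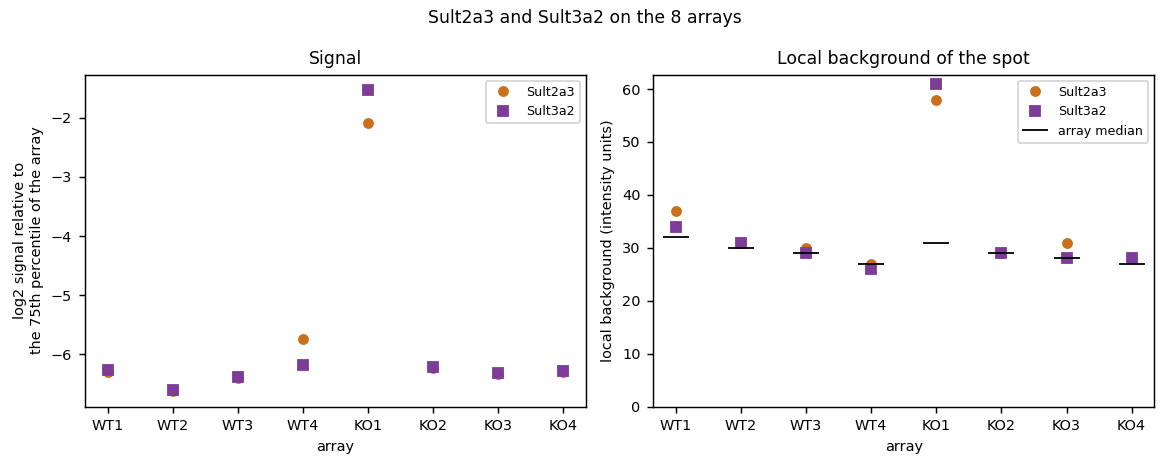
Log2 signal minus the array's 75th percentile (left) and local background of the spot in intensity units (right) for *Sult2a3* and *Sult3a2* on the 8 arrays (horizontal axis), with the median local background of each array as a dash. Both genes stand apart on KO array 1, at -2.08 and -1.52 in signal and 58 and 61 units in background.

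No gene that supplies a cofactor was called by limma. For the counts of the lists below, 1.67% of all probes were called and 8.79% did not overlap. An unadjusted p under 0.05 was passed by 13.3% of all probes, and 43.8% lay above 0. Of 12 tested genes of glutathione supply and turnover, 2 higher and 2 lower passed an unadjusted p under 0.05, and 4 lay above 0. *Ggt6*, of the gamma-glutamyltransferase family, and *Chac2*, which breaks down glutathione, were higher in every KO liver than in any WT liver, with differences of 0.42 (SE 0.12, adjusted p = 0.198, limma) and 0.24 (SE 0.09, adjusted p = 0.309, limma). Both lower genes, named after their values were seen, had larger differences and overlapping groups. *Nat8*, which acetylates cysteine conjugates made from glutathione conjugates, was at -1.10 (SE 0.35, adjusted p = 0.233, limma) and was called with slide column as a block (adjusted p = 0.197, limma). *Chac1*, which also breaks down glutathione, was at -0.79 (SE 0.27, adjusted p = 0.261, limma). The summed linear signal of the list ranged from 628 to 662 in WT and from 509 to 627 in KO. *Gclc* and *Gclm*, the subunits of the rate-limiting enzyme of glutathione synthesis, were at 0.05 and -0.09. Of the 7 genes of UDP-glucuronate supply, 0 passed even the unadjusted p, and *Ugdh*, which makes UDP-glucuronate, was at -0.26.

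Of 8 tested genes of PAPS supply and sulfate handling, 2 higher and 1 lower passed the unadjusted p, beside 13.3% of all probes. The groups did not overlap for 2 genes, beside 8.79% of all probes. *Slc26a1*, a hepatic sulfate transporter, had signals of 3.98, 4.12, 4.02 and 4.10 in the WT livers and 4.44, 4.41, 4.28 and 4.37 in the KO livers. It was higher in all KO livers, by 0.32 (SE 0.07, adjusted p = 0.101, limma), and stayed under 1.5-fold. *Papss1*, which makes PAPS, was also higher in all KO livers, by 0.37 (SE 0.12, adjusted p = 0.261, limma), and its relative *Papss2* was at 0.45 with overlapping groups. The lower gene, *Slc35b3*, which carries PAPS into the Golgi and is named after its values were seen, was at -0.20 (SE 0.08, adjusted p = 0.346, limma) with overlapping groups.

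The other conjugating enzymes held calls in both directions, 1 higher and 1 lower of 14, beside 0.939% and 0.726% of all probes. *Inmt*, which methylates indolamines, had signals of 7.84, 8.34, 8.39 and 8.21 in the WT livers and 8.66, 8.94, 8.95 and 8.99 in the KO livers. It was higher in KO by 0.69 (SE 0.13, adjusted p = 0.0841, limma). *Nnmt*, which methylates nicotinamide, had signals of 7.09, 7.47, 7.66 and 7.07 in the WT livers and 6.12, 6.61, 6.94 and 6.42 in the KO livers. Its difference was -0.80 (SE 0.20, adjusted p = 0.147, limma), and both genes had groups that did not overlap. The call of *Nnmt* was lost without any 1 of 5 livers (WT 2 or 3, KO 1, 2 or 4) and that of *Inmt* without WT 1 or KO 2. Without the filter on dim probes neither was called (adjusted p = 0.337 and 0.213, limma), and the unpaired t test did not call *Nnmt*. *As3mt*, the arsenic methyltransferase, was higher in every KO liver at 0.52 (SE 0.10, adjusted p = 0.0822, limma) but under 1.5-fold, and *Baat*, which joins bile acids to taurine or glycine, at 0.19 (SE 0.06, adjusted p = 0.252, limma).

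Of 9 exporters, 1 was called, beside 1.67% of all probes. *Abcb1b*, a P-glycoprotein gene, had signals of -1.40, -1.82, -2.27 and -2.10 in the WT livers and -2.44, -2.98, -3.01 and -3.0 in the KO livers, lower in every KO liver than in any WT liver. Its difference was -0.96 (SE 0.21, adjusted p = 0.110, limma), and the call was lost without WT 2, KO 2 or KO 4, with normexp background correction, at -0.47, without the filter on dim probes (adjusted p = 0.266, limma) and with the unpaired t test. Of 17 regulators none was called by limma, 1 higher and 2 lower passed the unadjusted p, and the unpaired t test called 0 as well. *Nfe2l2*, the gene of NRF2, was at 0.33, *Ahr* at 0.08, *Nr1i2* (PXR) at -0.17 and *Nr1i3* (CAR) at 0.08. *Rxra*, the partner of many nuclear receptors, was lower in all KO livers, at -0.16 (SE 0.07, adjusted p = 0.359, limma). Of 8 other tested NRF2 targets 1 passed the unadjusted p and none was called by limma, with differences between -0.30 for *Osgin1* and 0.26 for *Nqo1* and *Srxn1*. The medians of these 7 lists lay between -0.10 and 0.10, beside -0.02 for all probes. Of 8 tested pericentral and 8 periportal hepatocyte genes none was called, and 1 of each passed the unadjusted p, lower in KO. Of these genes, 3 pericentral and 7 periportal ones lay below 0. The summed linear signal of the periportal genes ranged from 1792 to 2111 in WT and from 1625 to 1884 in KO. That of the pericentral genes ranged from 1707 to 2004 and from 1690 to 1998. Of the markers of other liver cells, 1 of 7 for Kupffer cells was called (*Marco*, -1.22, a call lost without WT 3, without KO 2 and without the filter on dim probes), and 0 of 5 cholangiocyte, 5 lymphocyte, 8 stellate, 7 endothelial and 4 erythroid markers tested. Below 0 lay 5 of 7 Kupffer, 3 of 5 cholangiocyte and 4 of 5 lymphocyte markers. The same held for 7 of 8 stellate, 3 of 7 endothelial and 4 of 4 erythroid markers, while 43.8% of all probes lay above 0. The stellate median was -0.28, with *Pdgfrb* (-0.45) not overlapping and *Lrat* above 0 (0.50), and the erythroid median was -0.17. Of the cholangiocyte markers, *Sox9* (-0.64) was called with slide column as a block (adjusted p = 0.154, limma). The summed linear signal of the Kupffer markers ranged from 89.1 to 146 in WT and from 75.2 to 125 in KO, that of the stellate markers from 98.6 to 132 and from 96.1 to 102, and that of the erythroid markers from 418 to 511 and from 288 to 511. Their part in the values of the members was not tested.

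**Figure D5:**
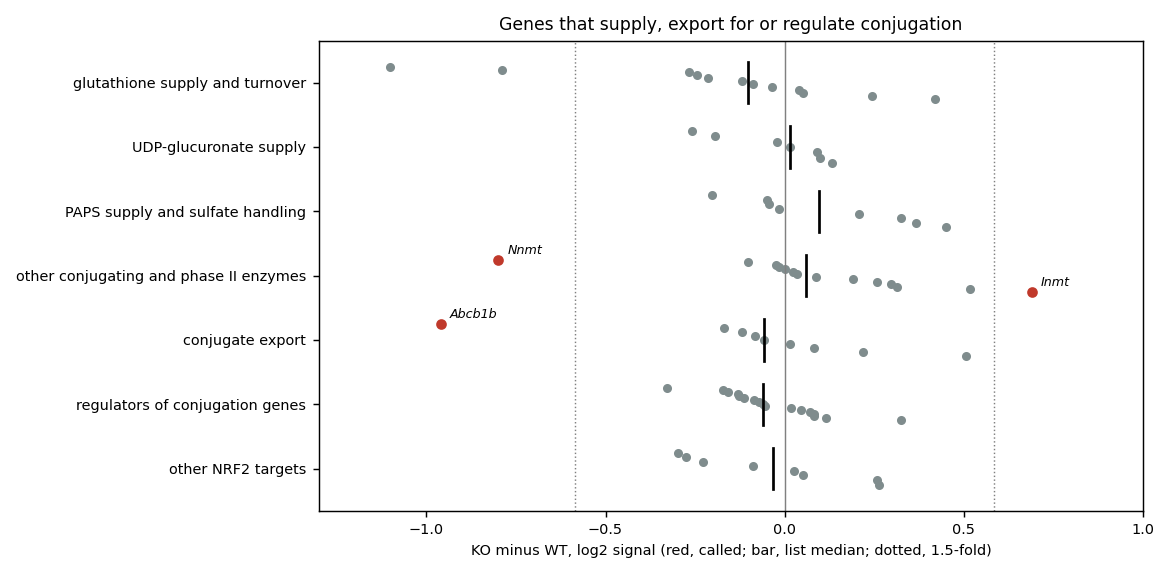
Difference in log2 signal, KO minus WT (horizontal axis), for the tested genes (points) of 7 lists of genes that supply, accompany or regulate conjugation, with the list median as a bar and dotted lines at 1.5-fold. The 3 called genes, in red, are *Nnmt* at -0.80, *Abcb1b* at -0.96 and *Inmt* at 0.69.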

How the data were processed

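The authors deposited the scanner output of Agilent Feature Extraction 10.7.1.1 for each array, in which the processed signal is a background-corrected fluorescence intensity on a linear scale, and a table of log2 values. The deposited log2 values were checked against the log2 intensity minus the 75th percentile of the array, and the median gap per array was 0.00464 to 0.00848. Arrays have no sequencing depth, so precision is limited by how many arrays there are and by the signal over background of dim probes.

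Control and outlier spots were left out, the array's 75th percentile was subtracted from log2 processed signals, and replicate spots were averaged. Probes measured well above background by all 4 arrays of a genotype were fitted with limma 3.58.1 (lmFit and eBayes, R 4.3.3), with two-sided p-values adjusted by Benjamini-Hochberg over 29069 probes. The fit was tested on simulated data. Symbols came through transcript accessions (32994 of 56605 probes matched) from a RefSeq table of GRCm38.p6. The scanner output names another build, so that table gave only names and neighbours. Promoter sequences and their coordinates are those of RefSeq for GRCm38.p6, found for 51 of 59 members. The first listed start was used, except for the shares of promoters with a motif, which took every listed start. The members, gene lists and tests were chosen with earlier results of these data known. Values of every liver are given for called members, members whose groups did not overlap and the 3 largest differences of each family, and list genes that were called or did not overlap, up to 4 per list, are named with at least their difference.

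The thresholds follow a figure legend of the study, where adjustment of the p is not stated. The alternatives were normexp background correction (offset 50), median and quantile normalization, other filters on dim probes, the authors' log2 table, outlier spots kept, eBayes with trend and robust options, other thresholds, a replicate block, leaving out each array, the probe mean of a gene and an unpaired t test. Leaving out spots with a local background over 1.5 times the array median was chosen after seeing the data. Figures were drawn with matplotlib.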

Additional observations from a re-analysis of the deposited data

Results flagged for a closer look

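Within a genotype, 1 liver stood apart from the other 3 in 6 of 98 groups of 4 examined, and chance marks about 1 group in 20. For 44 tested members and 5 members seen above background on some arrays, each genotype was examined. *Sult2a3* was at -2.08 and *Sult3a2* at -1.52 in KO liver 1, with the other KO livers between -6.33 and -6.22, and both spots lay on a raised local background, as given above. *Sult2a7* was at 0.92 in KO liver 3 with the others between -1.33 and -1.0, and *Gstp2* was at 9.36 in the same liver with the others between 9.58 and 9.61. *Mgst1* was at 9.54 in WT liver 3 with the others at 9.67 to 9.68, a gap smaller than most differences reported here. That gap depends on the scaling, as WT array 3 had the highest 75th percentile, 309 units. Before scaling, WT liver 3 lay close to WT livers 1 and 2 for *Mgst1*, and WT liver 4 was the lowest. *Sult1c1* was at -0.78 in WT liver 4 with the others between -0.62 and -0.60. The causes were not tested.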

How the results depend on the processing

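For 14 named members, 280 values under 20 other fits kept the direction of the main one, with 0 reversals. Of these, 269 also kept their side of the threshold, 9 lost the call of *Sult5a1* and 2 made a call of *Gstt3*. The filters on dim probes, eBayes options, replicate block and t test left each difference as it was, so they could not reverse it. Most of the named members were also chosen for the size or separation of their differences. The number of members called lower went from 1 to 0 without a filter on dim probes, with the unpaired t test, with the mean of the tested probes of a gene and at an adjusted p under 0.05, and lay between 0 and 1 when single livers were left out. The number called higher went from 0 to 1 (*Gstt3*) with normexp background correction and to 3 with an unadjusted p under 0.2 (*Gstt3*, *Sult1c2* and *Sult2a7*), and stayed at 0 when single livers were left out. Over all probes, 273 were called higher and 211 lower. The counts were 180 and 65 with normexp, 123 and 132 without a filter, 166 and 104 with the unpaired t test, 82 and 35 at an adjusted p under 0.05, 555 and 635 with no minimum fold change, and 537 and 451 with an unadjusted p under 0.2. With only probes above background on all arrays, 126 were lower. Leaving out single livers gave 153 to 334 higher and 98 to 275 lower. The causes were not tested, other than that fewer samples or more tested probes enter some fits. Livers with the same number shared a slide column, and their deviations had correlations of 0.33, -0.11, 0.10 and 0.32. Those of WT and KO livers with different numbers lay between -0.27 and 0.27. The main fit left the column out, and these correlations do not show that it had no part. With the replicate block, 1 member was called higher (*Gstt3*, adjusted p = 0.0810, limma) and 1 lower, with 327 and 265 probes. No scaling moved the median difference of all probes by over 0.1. Without spots on a raised local background, 0 members were called higher and 1 lower. Signal over background limits the 15 members not tested.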
